A study of Mus musculus with 16 samples.

Results

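The wild-type (WT) heart of the mouse embryo at E10.5, counted in embryonic days, is described here from 4 RNA sequencing libraries, WT 1 to WT 4. They are 4 of the 16 libraries of the series and were chosen by their genotype label alone. The other 12 libraries came from hearts of the same age with altered Tbx5, a T-box transcription factor gene of the heart and forelimb. Each of the 3 altered genotypes has 4 libraries: Tbx5 del/+ carries 1 altered allele called del, Tbx5 CreERT2/+ carries 1 called CreERT2, and Tbx5 CreERT2/del carries both and no wild-type copy by its label. These libraries are called altered below. The labels give the tissue as embryonic heart and leave unsaid whether a library holds 1 embryo or a pool and whether litters differed, so each SD and p-value measures the spread between these libraries, part of which may be technical. WT 1 and WT 2 were high in the X-linked transcript Xist (550.2 and 527.8 CPM) and WT 3 and WT 4 were not (1.69 and 3.25 CPM), so the 4 libraries did not all come from 1 embryo.

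At this stage the mouse heart has looped, its atria and ventricles are taking shape, and the ventricular wall is dividing into an outer compact layer and inner trabeculae. Its contractile muscle cells, the cardiomyocytes, are lined inside by endocardium and are being covered outside by epicardium, while cushions of mesenchyme fill the atrioventricular canal and the outflow tract. Contraction is driven by myosin thick filaments that slide along actin thin filaments, anchored at Z-discs, and several of these proteins exist as paralogs that mark a chamber or a developmental stage.

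Levels are given as CPM, the counts of a gene per 1000000 counts of its library outside mt-Rnr1 and mt-Rnr2, the mitochondrial ribosomal RNA genes. For comparisons between genes they are given as TPM, the same counts divided by gene length and rescaled to the same total in each library, and ranks are by mean TPM among 37989 genes. Values after ± are SDs over the 4 WT libraries. The mitochondrial ribosomal RNA genes took 67.9%, 69.3%, 68.9% and 60.6% of the 33244172, 42731841, 41808791 and 27312006 counts of WT 1 to WT 4, which left 10676538 to 13113302 counts. For a gene with a count of 0, a level of 0.229 to 0.281 CPM was taken as an approximate upper limit. It is the level of 3 counts in the deepest and the shallowest WT library, and it covers counting error only. WT 4 stood apart from the other WT libraries: for 1350 genes of 8000 bases or more its median log2 ratio to the mean of the others was 0.82, and for 446 genes of 200 to 1000 bases it was -0.55. In WT 3 the same medians were -0.55 and 0.37. WT 4 is named below for some of the values where it stood apart. Those set apart by a fixed rule are listed near the end, and a gene without such a remark may still be affected.

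Counts were detected for 23406 genes, of which 16571 were protein-coding. At a mean of at least 1 TPM there were 12411 genes, at 10 TPM 4188, at 100 TPM 505 and at 1000 TPM 57. The counts were concentrated in few genes: the 10 highest genes by CPM held 20.6% ± 1.67 of the counts, the 100 highest 38.3% ± 3.53 and the 1000 highest 66.7% ± 3.48. TPM values are low on an absolute scale because 1 short feature took a large part of the length-scaled total. The 57-base gene mmu-mir-689-2 (chr16:11144218-11144274, mm9) was at 24512, 30487, 41840.3 and 27649.5 CPM and therefore ranked first at a mean of 541398 TPM. Without the 5616 features shorter than 200 bases every other TPM value would be 2.00 to 2.61 times as large in the 4 libraries, with the order among the remaining genes within a library unchanged.

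Transcripts for energy production, contraction and protein synthesis took the largest shares among the functional classes examined. The 13 protein genes of mitochondrial DNA, which encode subunits of the respiratory chain and ATP synthase, took 12.8%, 14.3%, 12.4% and 8.77% of the counts, and WT 4 was the lowest. The 30 sarcomere and Z-disc genes took 7.76%, 6.95%, 7.79% and 8.42%, a narrower spread in which WT 4 was the highest. The 84 cytosolic ribosomal protein genes took 7.48%, 7.80%, 8.90% and 4.77%, again lowest in WT 4. Without WT 4 the mean shares of these classes were 13.2%, 7.50% and 8.06%, against 12.1%, 7.73% and 7.24% with it.

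**Figure D1:**
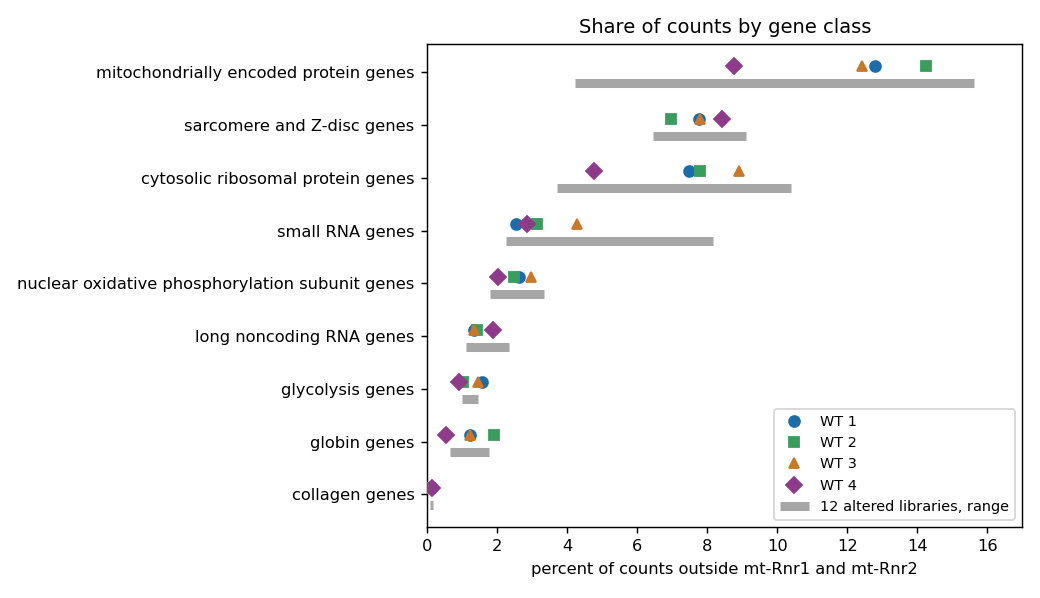
Share of counts of 9 gene classes in percent of the counts outside the mitochondrial ribosomal RNA genes, with 1 symbol for each WT library and a grey bar for the range of the 12 altered libraries. The mitochondrially encoded class averaged 12.1% and collagen genes 0.101%, and WT 4 (diamond) was the lowest WT library for mitochondrial, ribosomal protein and globin genes.

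Smaller shares went to nuclear genes of energy metabolism and to blood. The 92 nuclear genes for subunits of oxidative phosphorylation took 2.52% ± 0.394, and 16 glycolysis genes took 1.24% ± 0.325. The 8 globin genes took 1.23%, 1.90%, 1.22% and 0.537%. Collagen genes, 43 in the table, were at 0.101% ± 0.0290, so matrix collagen transcripts were a minor part of this heart. Long noncoding RNA genes took 1.495% ± 0.252 and pseudogenes 0.373% ± 0.0516. Every WT value lay inside the range of the altered libraries for the mitochondrially encoded, sarcomere, ribosomal protein, nuclear oxidative phosphorylation and long noncoding classes. The globin share of WT 2 (1.90%) was above and that of WT 4 (0.537%) below the altered range of 0.656% to 1.76%. For glycolysis WT 1 (1.57%) and WT 3 (1.46%) were above and WT 4 (0.898%) below the altered range of 1.01% to 1.45%. The collagen share of WT 3 (0.0758%) was below its altered range, and the pseudogene share of WT 4 (0.445%) above its own.

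Of the 20 genes with the highest mean TPM, 8 were mitochondrially encoded, 3 were sarcomere genes and 3 were globins. The mitochondrial members were led by mt-Co1, a subunit of cytochrome c oxidase, at 51758, 66181, 43603 and 29204 CPM, followed at ranks 3 to 6 by mt-Nd5, mt-Nd1, mt-Nd6 and mt-Cytb, and then by mt-Co2, mt-Nd4 and mt-Co3. mt-Nd6, which is encoded on the opposite strand from the other mitochondrial protein genes, was at 6081, 5286, 9009.7 and 5718 CPM in WT, against 970.1 to 5367 CPM in the altered libraries. The ranges overlapped, and the difference did not pass the test (log2 0.99 ± 0.35 (SE), edgeR adjusted p = 0.643). The remaining named members were Hbb-y, Actc1, Hbb-bh1, Myl7, Tnnt2, Hba-x, the ribosomal protein gene Rpl32, and Lars2, the mitochondrial leucyl-tRNA synthetase gene, at 10257, 17645, 22378 and 22232 CPM. Whether all reads counted for Lars2 came from its own messenger RNA was not tested, so its rank is one of counts only. Besides mmu-mir-689-2, the short features mmu-mir-2134-4, AC115697.1 and Gm12563 completed the 20. Among the top 100, 37 were ribosomal protein genes, 11 mitochondrial, 9 sarcomere, 8 nuclear oxidative phosphorylation, 3 globin and 2 glycolysis genes.

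The thin filament was dominated by cardiac alpha-actin and cardiac troponin T. Actc1, which encodes cardiac alpha-actin (chr2:113873018-113879284), was at 18164, 10600.0, 16986 and 11093 CPM and ranked 8. Tnnt2, the cardiac troponin T that holds the troponin complex on tropomyosin (chr1:137737452-137748837), was at 4137, 4729.6, 4789 and 3562 CPM and ranked 16, and was 119-fold above the slow skeletal paralog Tnnt1 per length. Troponin I was less one-sided: Tnni1, the slow skeletal form that prevails in the embryonic heart, exceeded the adult cardiac form Tnni3 by 1.86-fold, with log2 ratios of 0.94, 1.01, 0.87 and 0.76. All 4 libraries had the same order in both pairs. Tropomyosin Tpm1 ranked 82. Tnnc1, cardiac troponin C, was listed at 0 in all WT libraries: 99.0% of its exon bases also belong to another annotated entry, and its level is not read from these counts.

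The thick filament held both atrial and ventricular myosin light chains at high levels. Myl7, the atrial regulatory light chain (chr11:5796640-5798785), was at 2909, 2397, 3256 and 1925 CPM and ranked 15, and Myl2, the ventricular regulatory light chain, at 3853, 3456, 4618 and 2992 CPM, ranked 28 because it is longer. Per length Myl7 exceeded Myl2 in every library, by log2 1.32, 1.20, 1.22 and 1.09. The essential light chains were closer per length: Myl4, expressed in atria and in embryonic muscle, was below the ventricular Myl3 in every library. The mean log2 ratio was -0.29 ± 0.11. Before length scaling the order of the means was the other way, with Myl4 at 5455 and Myl3 at 1863 CPM after TMM scaling. The order of both light chain pairs thus depends on the gene lengths used. The myosin heavy chains were nearly level. Myh6, the alpha chain (chr14:55560758-55585764), and Myh7, the beta chain next to it (chr14:55589525-55613471), had log2 ratios of -0.01, 0.14, 0.19 and 0.30, so 3 libraries had more Myh6 and WT 1 had slightly less. With 4 libraries the smallest two-sided p of the exact sign-flip permutation test is 0.13, which was reached wherever all 4 ratios had the same sign, and p was 0.25 for Myh6/Myh7. Mybpc3, cardiac myosin-binding protein C, was at 413 ± 70.4 CPM and Myom1, which crosslinks thick filaments at the M-band, at 459 ± 142 CPM.

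Titin alone took a large part of the sarcomere counts through its length. Ttn (chr2:76542037-76820604), the giant spring protein that spans from Z-disc to M-band, was at 25632, 28148, 23835 and 45474 CPM over 116828 bases of exons, and WT 4 was far above the other libraries. By TPM it ranked only 194, and without it the 29 other genes took 5.20%, 4.14%, 5.41% and 3.87% of the counts, with WT 4 the lowest instead of the highest. These 29 genes took 3.89% to 4.84% in the altered libraries, so WT 1 and WT 3 were above and WT 4 below that range. Csrp3, the muscle LIM protein of the Z-disc, ranked 79, above the crosslinker Actn2 (606), the intermediate filament gene Des (387) and the chaperone gene Cryab (283). Nebl, nebulette of the cardiac Z-disc, was at 1419, 1417, 1481 and 1554 CPM, the narrowest spread of this group. Over the 30 genes of the thick filament, thin filament and Z-disc lists, 29 were detected in all 4 libraries, 27 were at 10 TPM or more and 18 at 100 TPM or more.

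**Figure D2:**
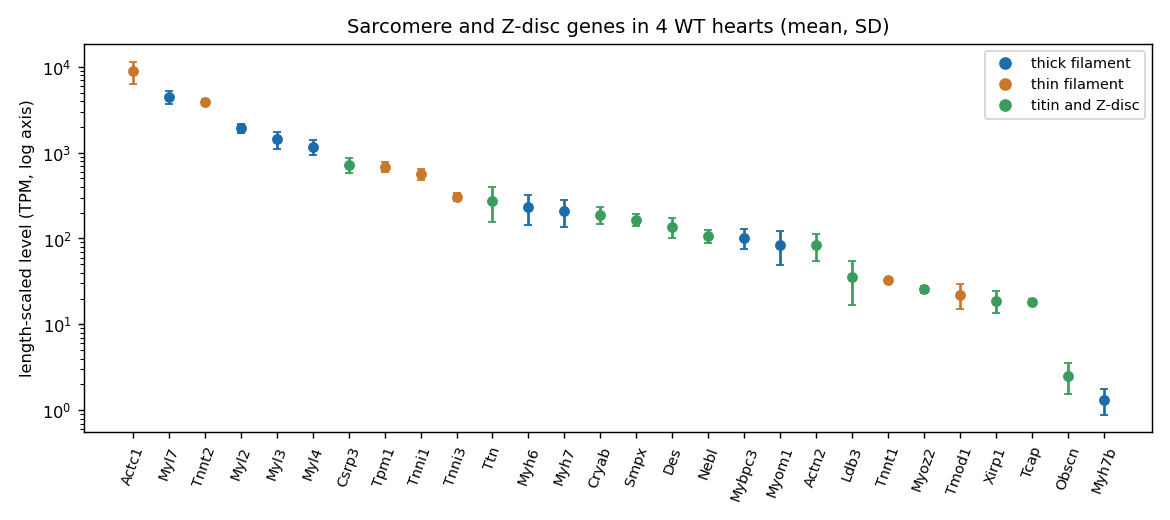
Length-scaled level (TPM, log axis) of detected sarcomere and Z-disc genes in WT hearts, ordered by level, as mean and SD over 4 libraries, coloured by filament. Actc1, Myl7 and Tnnt2 were the highest and Myh7b the lowest.

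The promoters of 3 abundant genes of these lists are shown, chosen because a binding sequence of serum response factor (SRF), the CArG box, was found in them. The windows of Tnnt2 and Myl2, which are more abundant per length than Myl3, held no match to it. SRF is itself expressed here (Srf 58.2 ± 8.62 CPM) and is known to bind muscle actin promoters. RefSeq sequences (GRCm38.p6) of 250 bases before to 50 bases after the start were found for 26 of the 30 genes, as 35 windows. Both strands were searched, and TATAAA, made of A and T alone, can lie inside a CArG box. The windows of Actc1 (chr2:114052826-114053125, minus strand), Myl7 (chr11:5898733-5899032, minus strand) and Myl3 (chr9:110763428-110763727, plus strand) follow in GRCm38.p6, 5′ to 3′, with the CArG box in capitals, starting at -47, -61 and -85 from the start.
Actc1: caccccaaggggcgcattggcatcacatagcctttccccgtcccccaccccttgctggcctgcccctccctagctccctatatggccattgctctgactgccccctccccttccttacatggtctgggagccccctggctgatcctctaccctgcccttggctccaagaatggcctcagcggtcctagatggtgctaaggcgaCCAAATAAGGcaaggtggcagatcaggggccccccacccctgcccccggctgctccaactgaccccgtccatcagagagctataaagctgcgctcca
Myl7: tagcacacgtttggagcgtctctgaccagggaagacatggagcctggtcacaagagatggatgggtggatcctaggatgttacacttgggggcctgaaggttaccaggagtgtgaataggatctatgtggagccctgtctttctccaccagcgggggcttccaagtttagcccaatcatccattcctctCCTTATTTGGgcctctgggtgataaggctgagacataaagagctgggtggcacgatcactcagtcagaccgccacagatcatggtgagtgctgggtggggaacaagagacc
Myl3: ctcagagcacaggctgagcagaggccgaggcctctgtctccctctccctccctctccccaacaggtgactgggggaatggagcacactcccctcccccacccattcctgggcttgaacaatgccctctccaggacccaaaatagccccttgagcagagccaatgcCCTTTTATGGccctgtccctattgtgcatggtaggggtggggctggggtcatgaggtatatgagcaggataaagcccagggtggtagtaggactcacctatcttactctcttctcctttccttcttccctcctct
A CArG box was in 8 of the 35 windows (22.9%), from 7 genes (among them Actc1, Ldb3, Myl3, Myl7, Myom1 and Nebl), against 1.63% of all 32851 windows of the RefSeq table. The 2 Ldb3 windows overlap and hold the same box. TATAAA was in 14.3% of the 35 windows against 13.6% of all, and the GATA-type letters AGATAA or TGATAA in 25.7% against 18.6%. These are matches of letters, with no binding measured.

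Calcium handling genes were in place, with the genes of calcium release and uptake among the higher ones. Ryr2, the calcium release channel of the sarcoplasmic reticulum, was at 589, 583, 469 and 1178 CPM, and Atp2a2, the calcium pump SERCA2, at 658, 471, 451 and 1106 CPM. For both, WT 4 was the highest library. Pln, phospholamban, the inhibitor of that pump, was at 558 ± 51.0 CPM and its atrial relative Sln at 1.04 ± 0.933 CPM. Slc8a1, the sodium-calcium exchanger, was at 672 ± 73.8 CPM. Of the calsequestrins, which buffer calcium in the store, the skeletal-type Casq1 exceeded the cardiac Casq2 in every library, with log2 Casq2/Casq1 of -3.32, -2.27, -3.18 and -2.80, so Casq1 was 7.42-fold higher per length. Among calcium channels, the L-type Cacna1c exceeded Cacna1d by 1.62-fold, and the T-type Cacna1h exceeded Cacna1g by 44.1-fold in the mean ratio. The log2 ratios Cacna1h/Cacna1g were 5.51, 5.74, 5.96 and 4.64. This fold is imprecise, because Cacna1g was at only 1.10 ± 0.54 CPM after TMM scaling.

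Ion channels of pacing and repolarisation were lower by far. Of 12 such genes 9 reached 1 TPM, 2 reached 10 TPM and none reached 100 TPM. The highest were Kcnj5, an acetylcholine-gated potassium channel subunit, at 93.2 ± 18.0 CPM, and Kcnh2, the rapid delayed rectifier, at 74.3 ± 17.8 CPM. Hcn4, the pacemaker channel of the sinus node, was at 34.1, 17.8, 16.6 and 41.6 CPM, with WT 1 and WT 4 the higher libraries. The gap junction genes Gja1 (connexin 43) and Gja5 (connexin 40) were at similar levels per length, with log2 ratios of 0.34, 0.43, 0.53 and -0.19, and both exceeded Gjc1 (connexin 45) while Gjd3 was near 0. Gja5 was 4.17-fold above Gjc1.

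Atrial and ventricular markers were both present. Beyond the light chains, the atrial list held Stard10 at 28.2 ± 3.85 CPM, Nr2f2 (COUP-TFII, a factor of atrial identity) at 4.59, 10.4, 3.76 and 18.8 CPM, and Sln near 1 CPM. In the ventricular list Irx4, a factor of ventricular identity, was at 23.0, 17.4, 18.7 and 12.3 CPM and exceeded Irx3 by 8.64-fold per length. The natriuretic peptide genes, markers of trabeculae and atria, ranked 237 for Nppb and 325 for Nppa. Nppa was at 186, 103, 144 and 123 CPM and Nppb at 198, 210.1, 212 and 106 CPM, with log2 Nppa/Nppb from -1.18 to 0.07, so their order differed between libraries. Of the exon bases of Nppa 61.5% are shared with another annotated gene, and how such reads were counted is not given in the sources used here. Other trabecular genes were Cited1 at 264 ± 66.4 CPM, Bmp10, a growth factor of trabeculae, at 26.9 ± 8.25 CPM, and Erbb4, the neuregulin receptor, at 202 ± 74.3 CPM. Compact wall genes included Mycn at 21.98 ± 3.90 CPM and Hey2 at 25.8 ± 6.01 CPM.

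Markers of the atrioventricular canal, the sinus node and the second heart field were mostly low. Tbx3, a repressor that holds back chamber genes in the conduction system, was at 13.2, 14.6, 8.45 and 15.97 CPM and exceeded its relative Tbx2, with log2 Tbx2/Tbx3 from -1.85 to -0.86. Bmp2, the signal of the atrioventricular canal, was at 15.7 ± 7.02 CPM. Isl1, a factor of second heart field progenitors, was at 1.22, 1.98, 0.0768 and 2.14 CPM, with WT 3 near 0. Of the 10 second heart field and outflow genes 4 reached 1 TPM. Fgf8 and Tbx1 were at or below 0.384 CPM in every library, while Sema3c, a guidance signal of the outflow tract, was at 47.8, 56.3, 47.8 and 49.6 CPM. Shox2 was listed at 0, and all of its exon bases are shared with another entry.

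Among 33 heart transcription factors and muscle regulators, 26 reached 1 TPM, 16 reached 10 TPM and 1 reached 100 TPM. That one was Smyd1, a muscle-specific histone methyltransferase, at 815, 484, 835 and 586 CPM and rank 350. Then followed Tbx20, a T-box factor of chamber growth (chr9:24527648-24578746), at 149, 159, 120.1 and 373 CPM with WT 4 apart, and the zinc finger factor Gata4 (chr14:63817759-63890529) at 190.2, 127, 157 and 179 CPM. Their mean ranks were 1021 and 1118, and their levels per length changed order between libraries. Hand1 ranked 1332, Mef2a 1544, Mef2c 1789, Nkx2-5 2551, Hand2 2608 and Gata6 2635. Gata4 exceeded Gata6 by 2.64-fold and Gata5 by 4.08-fold in the mean ratio, in all 4 libraries.

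Tbx5 itself ranked 2726 in WT hearts. Its counts gave 82.4, 51.6, 39.5 and 78.2 CPM (chr5:120284672-120335227), a spread of about the same size as for the other factors. In the altered libraries it was at 53.2 to 164.6 CPM, so the ranges overlapped, and the WT level was not shown to differ (log2 WT minus altered -0.39 ± 0.21 (SE), edgeR adjusted p = 0.985). Counts over the whole gene do not tell an intact transcript from one of an altered allele. Tbx20 exceeded Tbx5 per length in every WT library, by log2 0.66, 1.44, 1.42 and 2.07.

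**Figure D3:**
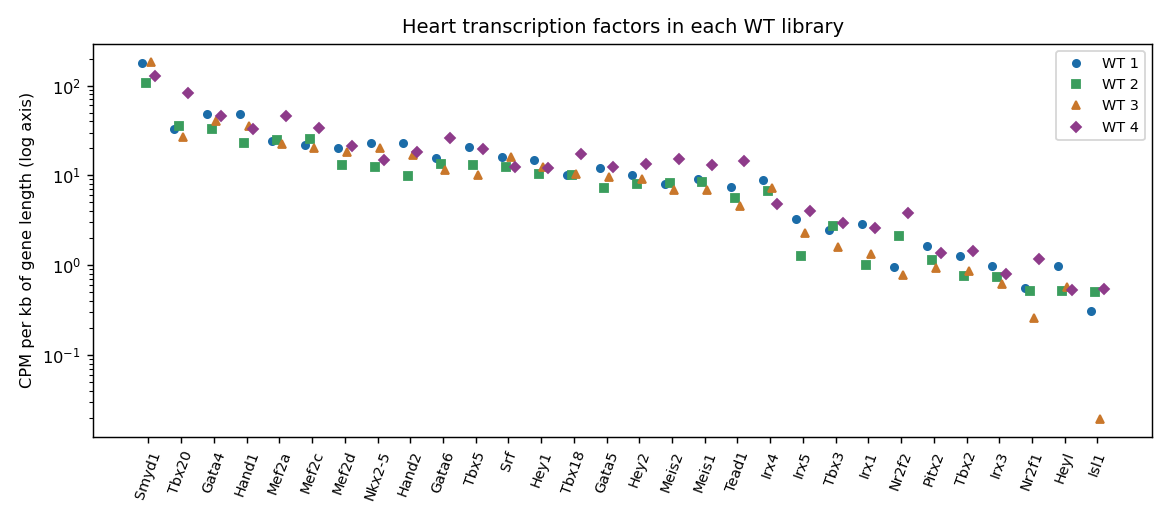
CPM per kilobase of gene length (log axis) of the heart transcription factors and muscle regulators with a mean of at least 0.3 TPM, with 1 symbol for each WT library, ordered by mean TPM. Smyd1 was the highest, and Isl1 the lowest with WT 3 well below the other libraries.

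Growth signals were led by Igf2, an insulin-like growth factor of fetal tissues, at 3153, 1654, 2556 and 2673 CPM and rank 118. Of 20 signals and receptors 19 reached 1 TPM and 8 reached 10 TPM. Bmp5 was at 53.3 ± 6.50 CPM and Bmp7 at 45.0 ± 7.02 CPM. Endothelin receptor Ednra was at 72.8 ± 17.5 CPM while its ligand Edn1 was at 10.4 ± 1.73 CPM, and the neuregulin receptor subunit Erbb2 was at 78.1 ± 17.8 CPM while Nrg1 was at 13.2 ± 3.48 CPM. Notch1 was at 36.6 ± 9.45 CPM, with its ligands Jag1 at 21.6 ± 8.84 and Dll4 at 3.59 ± 1.92 CPM.

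The hearts carried a full set of cell cycle transcripts. All 12 genes reached 1 TPM and 11 reached 10 TPM. Mki67, the proliferation antigen, was at 666, 762, 554 and 1109.7 CPM, and Top2a, the topoisomerase of dividing cells, at 955, 1131, 924 and 957 CPM. For Top2a the libraries lay close together except WT 2. Ccnd2 exceeded Ccnd1, the other D-type cyclin, by 2.66-fold in the mean ratio, in all 4 libraries.

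Glycolysis genes stood above fatty acid oxidation genes, with median levels of 191 and 16.8 TPM. Of 16 glycolysis genes 14 reached 10 TPM and 10 reached 100 TPM, and of 12 fatty acid genes 7 and 1. Gapdh was at 5784, 3868, 5773 and 3460.4 CPM and ranked 23. Ldha, the muscle-type lactate dehydrogenase, exceeded Ldhb by log2 2.63, 2.28, 2.35 and 1.46, with WT 4 the lowest. The glucose transporter Slc2a1 was at 659 ± 153 CPM. In the fatty acid list Fabp3, the heart fatty acid binding protein, was the highest per length, at 173 ± 39.2 CPM. Cpt1a, the liver form of the mitochondrial import enzyme, was at 8.43, 7.47, 7.91 and 23.4 CPM, and the muscle form Cpt1b at or below 0.281 CPM, but 81.4% of the exon bases of Cpt1b are shared with another annotated gene.

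Among the 13 marker lists the cardiomyocyte genes had the highest median level. In bulk RNA fewer cells of a type and less RNA per cell cannot be told apart. The cardiomyocyte list of 8 genes had a median of 253 TPM, with 7 detected. The 11 endocardial and endothelial markers were all detected, with a median of 15.5 TPM, led by Tek and Emcn. The 9 epicardial markers had a median of 12.1 TPM, led by Upk3b at 119.7, 77.8, 127 and 115 CPM, with Wt1 at 21.8 ± 2.16 CPM. Cushion and valve mesenchyme markers had a median of 6.15 TPM over 14 genes. That list was led by Vcan, the cushion proteoglycan, at 2639, 3113, 2172 and 4329 CPM, and its collagen genes Col3a1, Col1a2 and Col1a1 were at 159.6 ± 55.2, 74.7 ± 29.1 and 50.6 ± 18.4 CPM. Of 5 smooth muscle markers, Acta2 at 2606, 1311, 2249 and 1151 CPM and Tagln at 208, 191, 199 and 99.2 CPM are also expressed by embryonic cardiomyocytes, while Myh11, which is more specific, was at 3.23 ± 1.88 CPM.

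Blood transcripts were abundant and of the embryonic globin type. Hbb-y was at 5661, 9814, 6171 and 2725 CPM, Hbb-bh1 at 2893, 4752, 2872 and 1015 CPM and Hba-x at 3532, 4034, 2889.6 and 1507 CPM. WT 2 was the highest and WT 4 the lowest library for all 3. The paralogs Hba-a1 and Hba-a2, and Hbb-b1 and Hbb-b2, are nearly identical and their split is uncertain, but their counts were lower, with Hbb-b2 the highest of them at 67.6, 182, 92.9 and 37.7 CPM. Hbb-bh1 was below Hbb-y in every library, by log2 -0.86, -0.94, -0.997 and -1.32.

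Markers of other tissues were at or near 0 with few exceptions. Leukocyte and macrophage markers had a median of 0.480 TPM, with Laptm5 the highest by CPM at 5.73 ± 1.09 and C1qa at 0 in 3 libraries. In the neural crest list Foxd3 was at 0 and Sox10 at or below 0.839 CPM, but Erbb3 was at 4.87, 4.73, 4.69 and 10.8 CPM. Among neuronal markers Neurog2 was at 0, and among skeletal muscle markers Myog was at 0 while Myod1, Myf5, Pax3 and Pax7 were at or below 0.154 CPM. Mylpf, the fast skeletal light chain gene, was nonetheless at 56.2, 58.1, 47.8 and 20.5 CPM in these hearts, and Tnnt3 at 15.2 ± 1.86 CPM. Foregut and limb lists had medians of 0.150 and 0.0387 TPM, with Shh at 0.

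Liver and yolk sac type transcripts were highest in 1 WT library. Afp, alpha-fetoprotein, was at 1.499, 0.153, 71.4 and 9.28 CPM, Ttr, transthyretin, at 0.843, 0.915, 19.4 and 1.21 CPM, and Apoa1 at 0.281, 0.153, 13.7 and 0.279 CPM, so WT 3 stood above the others for all. The summed level of the 6 markers was 2.90, 1.22, 106 and 11.6 CPM in WT, against 1.51 to 758 CPM in the altered libraries. Of the defining members Alb was at or below 0.836 CPM and Foxa2 at or below 0.281 CPM in all WT libraries. What part other tissue has in any result of WT 3 was not tested.

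**Figure D4:**
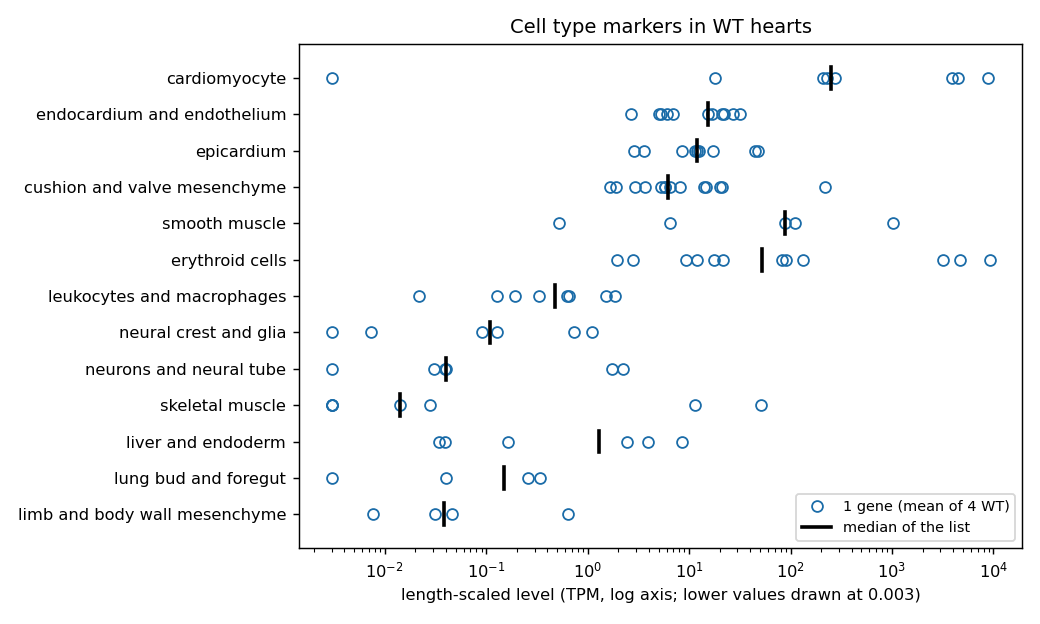
Length-scaled level (TPM, log axis) of the markers of 13 cell types in WT hearts, 1 circle for each gene as the mean of 4 libraries and a black line at the median of the list. The medians were 253 TPM for cardiomyocyte, 15.5 for endothelial, 12.1 for epicardial and 0.0387 for limb markers, and the circle at the left edge of the cardiomyocyte line is Tnnc1, whose exons overlap another entry.

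Few genes were called between WT hearts and the altered genotypes. Of 14607 genes tested with edgeR's quasi-likelihood test, contrasting WT with the mean of the 3 altered genotypes, 26 passed an adjusted p of 0.05 (0.178%), 9 higher in WT (0.0616%) and 17 lower (0.116%), while 767 had an unadjusted p under 0.05. The 9 higher include Prap1, which was high in WT 2 alone, at 2.15, 60.9, 0.691 and 0 CPM in WT 1 to WT 4. Of the 252 genes of the lists and markers above 222 were tested and 1 was called, in the direction higher in WT. The median log2 difference was 0.02 over those 222 genes and 0.00 over all genes tested. In simulated counts with 200 changed genes the edgeR test recovered 44% of 2-fold and 83% of 4-fold changes. A gene not called here may therefore still differ.

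The called list gene was Gja5, the connexin of atrial and trabecular gap junctions and a known target of Tbx5 (chr3:96708616-96881339). It was at 152, 113, 148 and 271 CPM in WT, against 66.6, 58.3, 51.3 and 41.8 in del/+, 95.0, 103.0, 163.1 and 68.7 in CreERT2/+, and 14.5, 8.48, 15.7 and 15.1 in CreERT2/del. WT overlapped CreERT2/+ through CreERT2/+ 3, and no WT value overlapped del/+ or CreERT2/del. WT was higher by log2 1.94 ± 0.17 (SE, edgeR adjusted p = 9.99e-07). The log2 ratio Gja1/Gja5 was 0.28 ± 0.32 in WT against 2.04 ± 1.20 in the altered libraries, and Gja5/Gjc1 was 2.06 ± 0.31 against 0.07 ± 1.35. These ratios had exact permutation p-values of 0.0148 and 0.0154, which did not pass adjustment over the 24 ratios (both 0.123).

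The Hand factors, basic helix-loop-helix regulators of ventricular growth, were the 1 pair of 24 (4.17%) whose ratio differed from the altered libraries after adjustment. The pairs were chosen with earlier results of these data known, and the adjustment does not cover that choice. Hand1 (chr11:57642207-57646320) was at 95.3, 46.3, 71.0 and 66.1 CPM in WT, against 29.1 to 56.6 CPM in the altered libraries. Hand2 (chr8:59799780-59803314) was at 51.0, 21.9, 37.6 and 41.0 CPM in WT, against 42.2 to 77.6 CPM in the altered libraries. Each gene's ranges touched through 1 WT library, WT 2 for Hand1 and WT 1 for Hand2, and neither gene passed the test alone (Hand1 log2 0.69 ± 0.19 (SE), edgeR adjusted p = 0.314, and Hand2 -0.68 ± 0.20 (SE), 0.402). Their log2 ratio Hand2/Hand1 was -1.07, -1.24, -1.08 and -0.85 in WT, against -0.20 to 0.78 in the altered libraries, and its genotype means were 0.32 for del/+, 0.22 for CreERT2/+ and 0.40 for CreERT2/del. No WT library overlapped an altered one, Hand1 was 2.08-fold above Hand2 per length in WT, and the difference was -1.37 on the log2 scale (two-sided exact permutation test over 1820 regroupings, p = 0.00055, the smallest they can give, adjusted 0.0132). With 1 WT library left out the adjusted p was 0.0527, the smallest that 3 against 12 libraries allow for 1 ratio over 24. Without the 3 libraries lowest in mitochondrial ribosomal RNA it was 0.0839, again the smallest that the libraries left allow for 1 ratio. Neither setting could therefore pass 0.05 for this ratio alone.

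**Figure D5:**
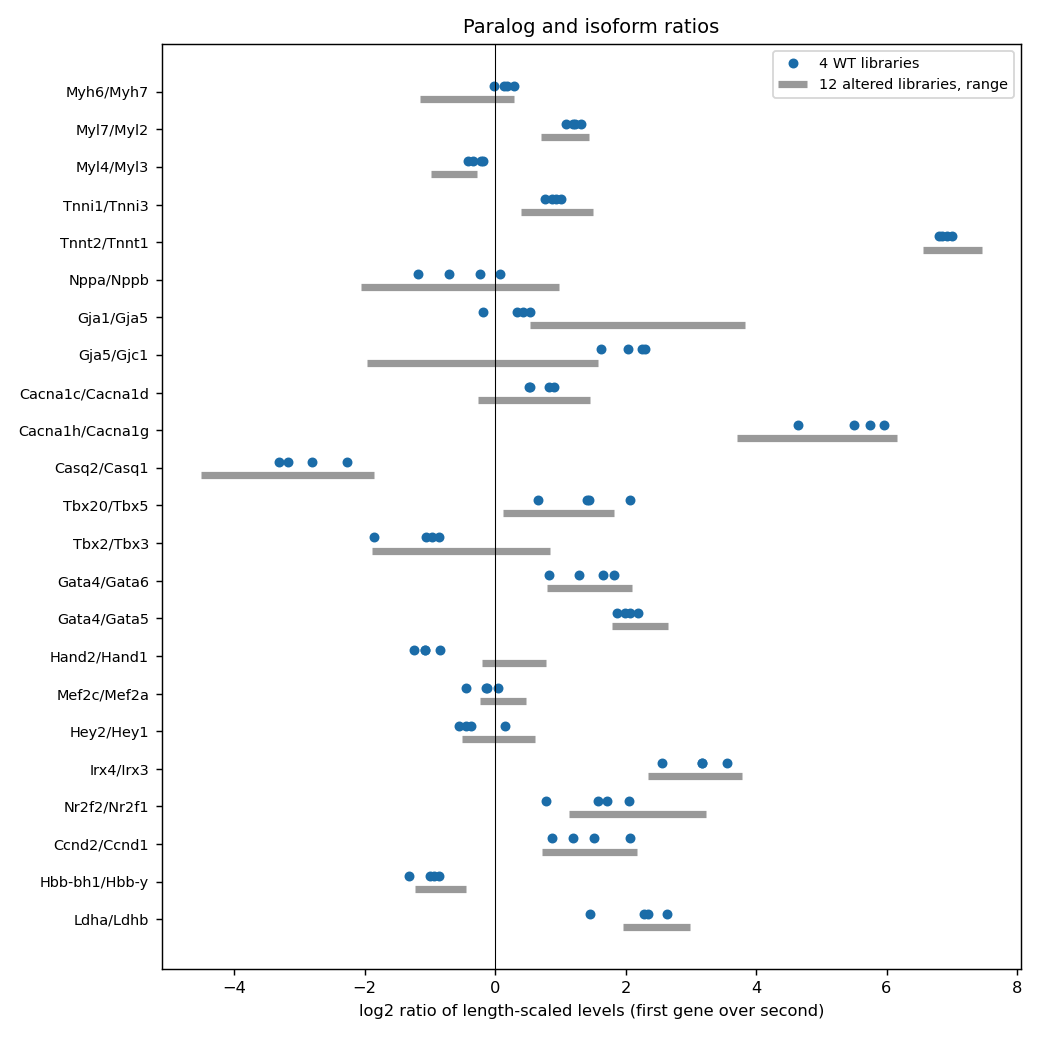
Log2 ratio of length-scaled levels of pairs of paralogs or isoform genes, first gene over second, with a blue point for each WT library and a grey bar for the range of the 12 altered libraries below it. Hand2/Hand1 was below the altered range in every WT library (-1.24 to -0.85, against -0.20 to 0.78).

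The other ratios did not pass the adjusted threshold. In all, 6 of the 24 had an unadjusted exact permutation p under 0.05, among them Hand2/Hand1, Gja1/Gja5, Gja5/Gjc1, Myl4/Myl3 (p = 0.0346) and Nr2f2/Nr2f1 (p = 0.0495). The log2 ratio Myl4/Myl3 was -0.29 ± 0.11 in WT, against -0.55 ± 0.21 in the altered libraries. For Myh6/Myh7 the WT mean of 0.15 lay above the genotype means, -0.01 for del/+, 0.07 for CreERT2/+ and -0.99 for CreERT2/del, and the exact permutation p against all altered libraries was 0.103.

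Of the genes outside these lists that were lower in every WT library than in any altered one, the 8 with the lowest adjusted p are named here. Kcna1, a potassium channel gene mainly known from neurons, was at 3.93, 2.06, 2.07 and 2.69 CPM in WT, against 49.7 to 153.8 CPM in the altered libraries, a log2 difference of -5.05 ± 0.34 (SE, edgeR adjusted p = 8.00e-09). Otx1, a homeobox factor of the forebrain, was at 0.656, 0.534, 0.307 and 0.650 CPM in WT, against 4.72 to 11.8 CPM in the altered libraries (log2 -3.77). Unc5d, a netrin receptor, differed by log2 -3.75, Med18, a Mediator subunit, by -2.20, Tesc, a calcium-binding protein, by -2.03, Fam3c by -1.33 and Ttyh2 by -1.22. Tesc lies on the same chromosome as Tbx5 (chr5:118477752-118511887), and what part its position has was not tested. The small nuclear RNA 7SK was at 40.6, 87.8, 35.3 and 47.1 CPM in WT, against 129.9 to 2006 CPM in the altered libraries (log2 -3.32).

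Histone and small RNA genes were also among the 17 lower genes, and are named after their values were seen. Hist1h2ai, Hist1h4c and Hist2h2ac, replication-dependent histone genes whose transcripts lack a poly(A) tail, had log2 differences of -2.22, -1.92 and -1.58, and the small RNA genes snoZ40 and Scarna2 -1.54 and -1.94. Hist2h2ac was at 47.0, 47.7, 42.3 and 38.6 CPM in WT, against 41.3 to 210.6 CPM in the altered libraries. In CreERT2/+ 3, one of the 3 libraries low in mitochondrial ribosomal RNA, it was at the bottom of the altered range. The higher side held Arrdc1, an arrestin-domain gene, at 4.40, 2.90, 2.23 and 5.38 CPM in WT, against 0.348 to 2.27 CPM in the altered libraries, a log2 difference of 1.63 ± 0.34 (SE, edgeR adjusted p = 0.0490). Its groups did not overlap on TMM-scaled values but did on CPM, through WT 3 and CreERT2/+ 3. Arrdc1 was the only gene higher in WT that met the rule for naming. Other higher genes, Gja5 among them, had lower adjusted p-values.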

How the data were processed

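Bulk RNA sequencing of E10.5 mouse hearts was analysed from 1 deposited table of 37991 genes and 16 libraries. The deposited values are raw counts per gene, all whole numbers, so they were used as they stand without the rounding that estimated counts would need. The deposited table also gives mm9 positions and gene lengths in base pairs, which equal the merged annotated exons of each gene. The labels' protocols name Qiazol, a miRNeasy micro kit for extraction and the Ovation RNA-seq system for the libraries. The submitters' processing notes name mm9, featureCounts, TopHat2 and edgeR. Versions, strand settings and how shared exons were treated are not given in the sources used. A further 52 per-sample or mean columns were not used. Reads of overlapping or antisense genes cannot be told apart.

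CPM and TPM were computed here without mt-Rnr1 and mt-Rnr2, and pseudogene and RNA types came from GENCODE vM21 by gene identifier. WT was compared with the mean of 3 altered genotypes by edgeR 4.0.16 in R 4.3.3 (filterByExpr, TMM, quasi-likelihood test, Benjamini-Hochberg at 0.05, 14607 genes, 1 mean per genotype). Ratios of 24 pairs were compared by two-sided exact permutation tests with Benjamini-Hochberg adjustment. Both procedures were tested on simulated data. All WT pairs differed by more than sampling noise (chi-square over its degrees of freedom 26.3 to 108). The members, lists and pairs were chosen with earlier results of these data known. Named genes are the 20 highest by TPM, the list members, and among called genes up to 8 higher and 8 lower with the lowest adjusted p. The WT libraries of these called genes do not overlap the others on TMM-scaled values, and sex-linked and predicted genes were left out. Arrdc1 was the only higher gene to meet this rule. Promoter sequences are from RefSeq, GRCm38.p6. The alternatives were other size factors, DESeq2 1.42.0, other filters and counted ribosomal RNA, a replicate block, other pseudocounts, no length scaling and leaving out libraries. Some members of these lists and 1 of the pairs were tested with the rest and are not reported here.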

Additional observations from a re-analysis of the deposited data

Results flagged for a closer look

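In each group of 4 WT values, 1 value was set apart when its gap to the nearest other exceeded Dixon's critical share of the whole range, a limit that chance passes in about 1 in 20 groups. Of 247 values examined (class shares, ratios, and list or marker genes at a mean of at least 1 CPM) 20 were set apart, 14 of them in WT 4. In WT 4 the high values were Tbx20 at 373.2 CPM, Mef2a at 288.8, Ryr2 at 1178, Cacna1c at 109.1, Tgfb2 at 95.5, Tbx18 at 80.3, Hk2 at 48.6, Cpt1a at 23.4, Bnc1 at 20.3, Erbb3 at 10.8, Csf1r at 7.61 and Kcnd2 at 7.43 CPM, and the low values were Nppb at 105.6 and Tagln at 99.2 CPM. WT 4 is the library in which long genes were high and short genes low, and the part of gene length in these values was not tested.

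WT 3 was set apart by Afp at 71.4, Ttr at 19.4 and Apoa1 at 13.7 CPM, genes of liver and yolk sac. WT 2 was set apart by Smtn, which was low at 18.3 CPM, and by Top2a, which was high at 1131 CPM, and WT 1 by Heyl at 4.96 CPM. These flags are for single libraries and carry no test between groups.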

How the results depend on the processing

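The class shares depend on the total they are taken of. With mt-Rnr1 and mt-Rnr2 counted they were 3.95% (mitochondrial), 2.59% (sarcomere), 2.36% (ribosomal protein), 0.392% (globin), 0.830% (nuclear oxidative phosphorylation) and 0.408% (glycolysis), and the sarcomere share was 8.78% with all mitochondrially encoded genes left out. An alternative chosen after seeing the data, features under 200 bases left out, gave 6930 genes at 10 TPM or more and 1075 at 100 TPM or more, against 4188 and 505.

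Of the genes called between WT and the altered genotypes (9 higher, 17 lower), no filter gave 48 higher and 88 lower, a mean CPM of 5 or more 4 higher, DESeq2 45 lower, and leaving out WT 4, CreERT2/+ 3 and CreERT2/del 3, the libraries lowest in mitochondrial ribosomal RNA, 45 lower. Leaving out 1 library at a time gave 4 to 11 higher and 12 to 48 lower, 4 higher without any 1 WT library, 5 without CreERT2/del 2 and 48 lower without CreERT2/+ 3. Same-numbered libraries of different genotypes did not consistently deviate together (correlations from -0.42 to 0.58), so the numbers were not taken to pair the samples, and the replicate block gave 6 higher and 16 lower. Gja5 stayed called in every alternative, by log2 1.73 to 2.07.

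The number of ratios that differed was 0 with any 1 WT library left out and 0 with WT 4, CreERT2/+ 3 and CreERT2/del 3 left out. No direction turned round for a result that passed the threshold in the main or the alternative run. Turns of direction among results that passed in neither were not counted. Among single genes the call of Arrdc1 was lost in 18 alternatives, Hist2h2ac in 14, Scarna2 in 5 and Hist1h4c in 3, and Hand1 was called in 1. The cause was not tested. The call of the ratio Hand2/Hand1 was lost in 5 alternatives, those with WT libraries left out, where it could not pass alone. Genes near 0.229 CPM rest on about 3 counts a library.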

Other observations

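Imprinted genes of fetal growth were among the abundant transcripts of WT hearts. H19 was at 3231, 3729.9, 3305 and 3376 CPM, a noncoding gene beside Igf2, and ranked 40. Cdkn1c, a cell cycle inhibitor, was at 1205, 711, 838 and 566 CPM, Peg3 at 1076 ± 419 CPM, Grb10 at 1259 ± 452 CPM and Mest at 1659 ± 850.4 CPM. Another imprinted pair, Meg3 and Dlk1, was lower, at 12.5 CPM each. For Grb10, Peg3 and Mest WT 4 was the highest library.

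Creatine kinase was of the brain type, with Ckb at 157, 107, 145 and 112 CPM, while the muscle type Ckm was at 1.10 CPM on average. Myoglobin, Mb, was at 31.6 CPM. Prap1 and Guca2b, known from gut, were at 60.9 and 24.6 CPM in WT 2 and at or below 2.15 CPM in the other WT libraries.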
